A study of Mus musculus with 18 samples.

Results

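The chemokine receptor gene Ccr2 and the 4 genes Ccl2, Ccl7, Ccl8 and Ccl12, which encode CC chemokines known as its ligands, were followed in the mouse forestomach. The question was whether the ligand transcripts are higher where the receptor is deleted. These 5 genes were picked out by name, and each was found once among the 57234 entries of the authors' expression table, of which 28934 have a reference gene. All 5 members were among the 14765 reference genes kept for testing, which reached 0.5 FPKM in 3 or more libraries. FPKM is a count of sequenced fragments divided by transcript length and by the mapped total of the library, so it can be compared between genes.

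RNA was sequenced from 18 forestomach samples of male C57BL/6 mice in a model of squamous carcinogenesis driven by N-nitrosomethylbenzylamine (NMBA), a nitrosamine carcinogen of the esophagus and forestomach. There were 6 samples of CCR2-/- and 6 of WT mice given NMBA by gavage at 0.25 mg/kg body weight, 2 times per week over 5 weeks, and 3 of CCR2-/- and 3 of WT mice gavaged with 1% carboxymethyl cellulose as controls. The tissue of every group was collected when week 25 ended. The CCR2-/- mice carry a germline deletion (Ccr2tm1Ifc), so that the receptor is lost in every cell type, and the mice were 4 to 8 weeks of age when put to use. All 18 libraries, controls included, carry esophageal cancer as the cell type in the labels. The study calls the sequenced material tumors, whereas the labels name removed forestomachs, and no tumor content is given per sample. The labels number the libraries within a group without stating that each came from a separate mouse, so that p values measure the spread between these samples. The NMBA libraries of either genotype come under 2 code letters, one for replicates 1 to 3 and one for replicates 4 to 6, with no statement of what the letters mean. Markers of squamous epithelium were abundant in every library, at 10594 to 15321 FPKM summed over the 6 of 8 found (the keratin genes Krt4, Krt5, Krt13 and Krt15, with Sprr3 and Trp63). Markers of the adjacent glandular stomach were present to a very unequal degree, at 4437 to 63881 FPKM summed over 9 markers.

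CCR2 is a G protein-coupled receptor of inflammatory monocytes that directs their exit from bone marrow and their entry into inflamed or malignant tissue, where they become macrophages. Its ligands are small secreted proteins whose amino-terminal region carries a pair of adjacent cysteines, the CC motif. CCR2 also takes up bound ligand and so removes it from its surroundings. CCL2 (also called MCP-1) is the best known of them, CCL7 (MCP-3) shares CCR1 and CCR3 as further receptors, and CCL12 (MCP-5) is a CCR2 ligand of mice. CCL8 (MCP-2) is a CCR2 ligand in humans that in mice is known chiefly as a ligand of CCR8.

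The 4 ligand genes lie in the same orientation on chromosome 11 of GRCm38, in the order Ccl2 (chr11:82035571-82037453), Ccl7 (chr11:82045712-82047525), Ccl12 (chr11:82101845-82103400) and Ccl8 (chr11:82115185-82116799), each with 3 exons. Ccr2 lies apart from them (chr9:124101950-124113557). The stretch that names the family is shown from the GENCODE M21 transcripts, 30 bases to either side of the codons of the adjacent cysteines, with those codons in capitals. They fall in exon 2 of each gene, and the 30 bases before them run back into exon 1.
Ccl2: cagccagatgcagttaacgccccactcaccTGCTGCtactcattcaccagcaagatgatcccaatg
Ccl7: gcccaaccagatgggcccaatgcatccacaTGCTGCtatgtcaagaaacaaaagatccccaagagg
Ccl12: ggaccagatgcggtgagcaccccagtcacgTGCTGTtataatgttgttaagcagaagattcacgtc
Ccl8: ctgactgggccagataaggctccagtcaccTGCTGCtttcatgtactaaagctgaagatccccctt
Around the motif the genes have diverged: of 66 aligned positions, Ccl8 and Ccl12 shared the same base at 39 and Ccl7 and Ccl8 at 20, with the other 4 pairs between these. No word of 31 bases was shared by any pair of the 4 transcripts, so the values below are little exposed to reads that could come from more than 1 ligand gene.

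Upstream sequence was available for Ccl8 and Ccl12 and not for Ccl2 and Ccl7, which were not searched for motifs. It is shown as the 250 bases before each gene's start in RefSeq on GRCm38.p6, read on the plus strand (chr11:82114935-82115184 for Ccl8 and chr11:82101595-82101844 for Ccl12), with the motif TATAAA in capitals.
Ccl8: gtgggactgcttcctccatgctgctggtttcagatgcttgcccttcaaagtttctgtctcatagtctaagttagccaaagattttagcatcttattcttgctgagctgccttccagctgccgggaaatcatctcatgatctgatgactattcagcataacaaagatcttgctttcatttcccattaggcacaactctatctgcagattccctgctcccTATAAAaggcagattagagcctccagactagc
Ccl12: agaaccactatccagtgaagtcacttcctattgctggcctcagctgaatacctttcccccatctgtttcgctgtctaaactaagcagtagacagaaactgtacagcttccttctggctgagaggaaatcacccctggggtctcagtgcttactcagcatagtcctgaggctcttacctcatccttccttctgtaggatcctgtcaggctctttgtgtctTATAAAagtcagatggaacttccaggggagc
TATAAA began 32 bases before the start of Ccl8 and 31 bases before the start of Ccl12. On both strands, 12.37% of 32851 such windows held TATAAA, and 3.899% held the NF-kappaB motif, which neither of these windows nor that of Ccr2 held in the letters searched.

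The deleted receptor separated the genotypes in every library. The CCR2-/- NMBA mice had 0.0613, 0.0652, 0.0301, 0.0241, 0 and 0.0798 FPKM of Ccr2 in replicates 1 to 6, against a lowest value of 1.30, a median of 2.31 and a highest value of 3.43 FPKM in the WT NMBA mice. The CCR2-/- controls had 0.0443, 0.0546 and 0 FPKM, against 2.37, 1.83 and 2.34 FPKM in the WT controls. The highest CCR2-/- library thus stood far below the lowest WT library, and 2 CCR2-/- libraries were listed at 0. Fold changes are on log2(FPKM + 1), a scale that understates the change of genes near or below 1 FPKM. The difference of CCR2-/- from WT was -1.62 under NMBA (SE 0.12, limma adjusted p = 1.55e-06) and -1.62 in controls (SE 0.17, limma adjusted p = 0.000329). Ccr2 ranked first of all genes tested in both. Ccr2 was the only member called at an adjusted p under 0.05 in either comparison, where 0.0474% of all genes were called under NMBA and 0.00677% in controls. It was again the only member called in the mean of both treatments (-1.62, SE 0.10, limma adjusted p = 1.55e-07), where 0.102% were called.

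Within WT mice Ccr2 was at about the same level with and without the carcinogen, at 2.28 ± 0.75 FPKM under NMBA (SD, n = 6) and 2.18 ± 0.305 FPKM in controls (SD, n = 3). The difference of NMBA from control was 0.02 on the log2 scale (95% interval -0.29 to 0.32). The WT NMBA libraries of replicates 1 to 3 had 2.14 to 3.43 FPKM and those of replicates 4 to 6 had 1.30 to 2.48 FPKM, ranges that overlap.

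**Figure D1:**
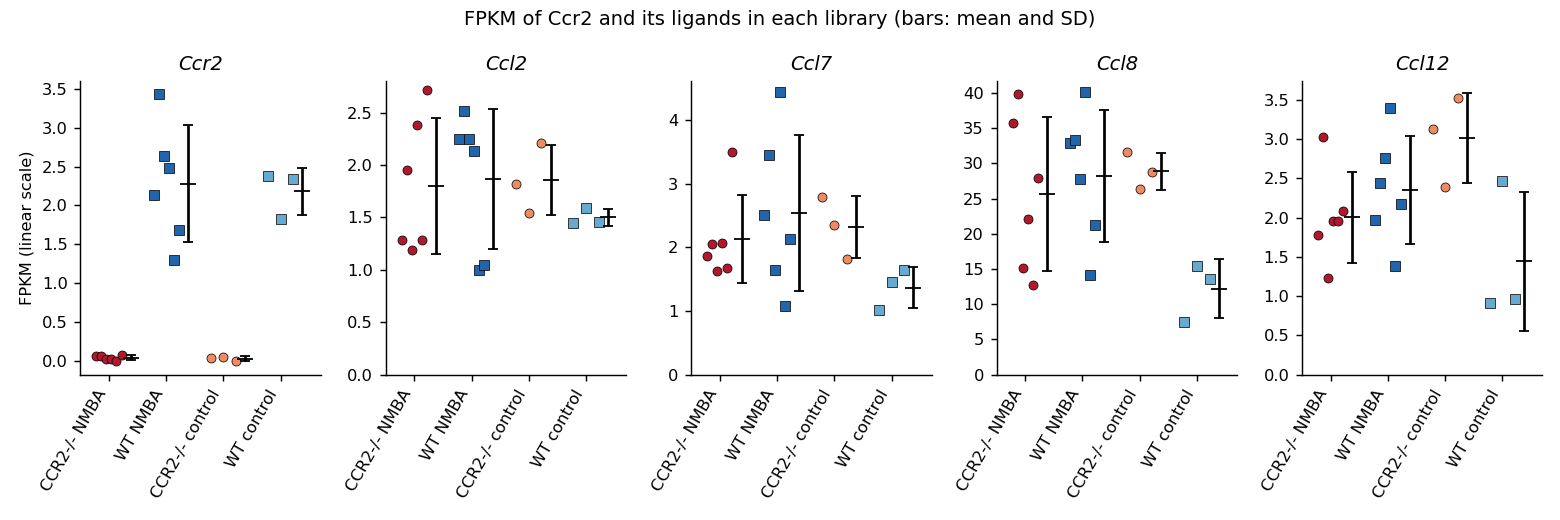
FPKM of each member (y axis, linear scale, a separate scale per gene) in each library, with the mean and SD of each group as a bar beside its points; circles are CCR2-/- and squares WT mice. Ccr2 is near 0 in the 9 CCR2-/- libraries, and Ccl8 lies between 26.4 and 31.6 FPKM in CCR2-/- controls and between 7.52 and 15.5 FPKM in WT controls while the NMBA groups overlap.

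The ligands showed one pattern in the unexposed forestomach and another under NMBA. In controls the mean of each of the 4 ligands was higher in CCR2-/- than in WT mice, by 1.24-fold for Ccl2, 1.69-fold for Ccl7, 2.37-fold for Ccl8 and 2.09-fold for Ccl12. Under NMBA the ratio of CCR2-/- to WT was 0.966 for Ccl2, 0.838 for Ccl7, 0.907 for Ccl8 and 0.853 for Ccl12. No ligand passed an adjusted p of 0.05 in any of the 6 comparisons, so the ligand results are given as measured values. At an unadjusted p under 0.05, Ccl8 and Ccl12 were higher in CCR2-/- controls, a share of 2 of 4 ligands where 2.81% of all genes were higher at that level.

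Ccl8 was the most abundant of the ligands and varied most. The CCR2-/- controls had 31.6, 26.4 and 28.7 FPKM of Ccl8, against 7.52, 15.5 and 13.6 FPKM in the WT controls. Every CCR2-/- control lay above every WT control, and all 3 WT controls lay below the median of either NMBA group. The CCR2-/- NMBA mice had 12.8 FPKM at the lowest, 25.0 at the median and 39.9 at the highest, against 14.1, 30.3 and 40.1 FPKM in the WT NMBA mice. These NMBA groups covered the same range, and a CCR2-/- NMBA library was the higher of the pair in 16 of 36 pairings. The difference of CCR2-/- from WT was 1.23 on the log2 scale in controls (SE 0.40, 95% interval 0.40 to 2.06, limma adjusted p = 0.799). It was -0.17 under NMBA (SE 0.28, 95% interval -0.76 to 0.42, limma adjusted p = 0.863). With 3 libraries against 3 an exact two-sided permutation test cannot go below 0.1, and Ccl8 in controls reached that value.

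Ccl12, the CCR2 ligand known from mice, had 3.13, 2.39 and 3.52 FPKM in the CCR2-/- controls, against 0.907, 2.46 and 0.958 FPKM in the WT controls. WT control replicate 2 lay inside the CCR2-/- range, so the control groups overlapped and 8 of 9 pairings had the CCR2-/- mouse higher. Under NMBA the lowest, median and highest values were 1.23, 1.96 and 3.02 FPKM in CCR2-/- mice and 1.38, 2.30 and 3.40 FPKM in WT mice, which overlapped widely. The difference of CCR2-/- from WT was 0.76 on the log2 scale in controls (SE 0.24, limma adjusted p = 0.797). It was -0.15 under NMBA (SE 0.17, 95% interval -0.52 to 0.21, limma adjusted p = 0.809). The exact permutation test over the same 6 controls gave p = 0.2 for Ccl12.

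Ccl7, a ligand shared with CCR1 and CCR3, had 2.79, 2.34 and 1.81 FPKM in the CCR2-/- controls, against 1.01, 1.45 and 1.64 FPKM in the WT controls. The control groups did not overlap, as for Ccl8, although the gap between them was narrow. The lowest, median and highest values under NMBA were 1.62, 1.96 and 3.50 FPKM in CCR2-/- mice and 1.08, 2.32 and 4.44 FPKM in WT mice. The difference of CCR2-/- from WT was 0.48 on the log2 scale in controls (SE 0.28, 95% interval -0.10 to 1.07) and -0.13 under NMBA (SE 0.20, 95% interval -0.54 to 0.28), with limma adjusted p of 1 and 0.853. Every CCR2-/- control lay above every WT control for 2 of 4 ligands, Ccl7 and Ccl8, and this held for 4.47% of all genes tested.

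Ccl2, the ligand after which the axis is named, differed least. The CCR2-/- controls had 1.82, 1.54 and 2.21 FPKM of Ccl2, against 1.45, 1.59 and 1.46 FPKM in the WT controls. The CCR2-/- control replicate 2 lay between the WT controls, and the WT controls were close to each other. Under NMBA the lowest, median and highest values were 1.18, 1.62 and 2.71 FPKM in CCR2-/- mice and 0.999, 2.19 and 2.52 FPKM in WT mice. The difference of CCR2-/- from WT was 0.19 on the log2 scale in controls (95% interval -0.30 to 0.68) and -0.03 under NMBA (95% interval -0.37 to 0.32). The 3 WT NMBA libraries of replicates 1 to 3 had 2.24 to 2.52 FPKM and those of replicates 4 to 6 had 0.999 to 2.14 FPKM. In CCR2-/- NMBA mice the corresponding ranges were 1.18 to 1.95 FPKM and 1.29 to 2.71 FPKM. The share of all genes that separate by these replicates was not counted. With replicates 4 to 6 alone the Ccl2 difference under NMBA was 0.39, and with replicates 1 to 3 alone it was -0.44, neither past the adjusted threshold of limma (adjusted p = 0.800 and 0.917).

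**Figure D2:**
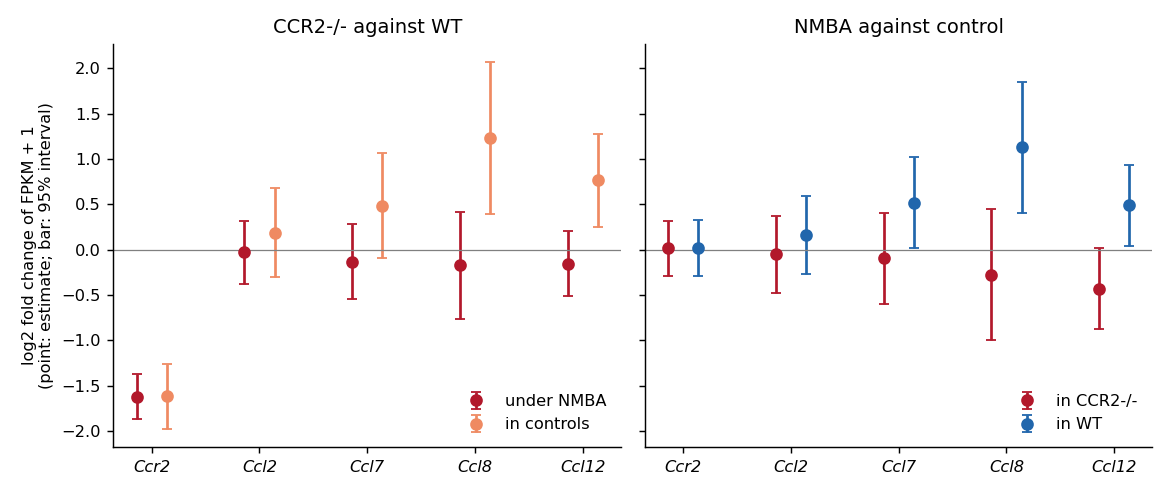
Log2 fold change of FPKM + 1 (y axis) for each member, with 95% intervals from limma, for CCR2-/- against WT (left panel) and for NMBA against control (right panel). The interval of Ccl8 lies above 0 for CCR2-/- in controls (0.40 to 2.06) and for NMBA in WT mice (0.41 to 1.85), and spans 0 for CCR2-/- under NMBA and for NMBA in CCR2-/- mice.

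The response to the carcinogen was then read in each genotype for the same genes. In WT mice the NMBA group had the higher mean of each ligand, and Ccl8 averaged 28.2 ± 9.35 FPKM under NMBA (SD, n = 6) and 12.2 ± 4.17 FPKM in controls (SD, n = 3), a ratio of 2.31. An NMBA library was the higher one in 17 of 18 pairings with a WT control for Ccl8, and WT NMBA replicate 5 alone reached down into the control range. The difference was 1.13 on the log2 scale (SE 0.34, limma adjusted p = 0.216). The exact two-sided permutation test gave p = 0.0357 where the smallest possible is 0.0119. The log2 difference was 0.52 for Ccl7 (SE 0.24, limma adjusted p = 0.365), 0.49 for Ccl12 (SE 0.21, limma adjusted p = 0.335) and 0.16 for Ccl2 (SE 0.20, limma adjusted p = 0.803). Of the 5 members 0 were called here against 0.088% of all genes. Ccl7, Ccl8 and Ccl12, 3 of 5, were higher at an unadjusted limma p under 0.05 against 5.45% of all genes. The exact permutation test gave p = 0.119 for Ccl7 and 0.107 for Ccl12.

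In CCR2-/- mice the means of the ligands did not lie above those of their controls. Ccl8 averaged 25.6 ± 11.0 FPKM under NMBA (SD, n = 6) and 28.9 ± 2.62 FPKM in controls (SD, n = 3). Ccl12 averaged 2.01 ± 0.581 FPKM under NMBA (SD, n = 6) and 3.01 ± 0.574 FPKM in controls (SD, n = 3). For Ccl12 an NMBA library was higher in 1 of 18 pairings, with only CCR2-/- NMBA replicate 2 above the lowest control. The log2 differences of NMBA from control were -0.28 for Ccl8 (95% interval -0.998 to 0.45) and -0.43 for Ccl12 (95% interval -0.87 to 0.01). They were -0.10 for Ccl7 (95% interval -0.60 to 0.41) and -0.05 for Ccl2 (95% interval -0.48 to 0.37). Of the 5 members 0 were called against 0.0203% of all genes, and 0 of 5 had an unadjusted limma p under 0.05, against 11.4% of all genes in either direction.

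Whether the genotype difference itself depended on the carcinogen was tested as the difference between its value under NMBA and its value in controls. It was -1.41 on the log2 scale for Ccl8 (SE 0.48, limma adjusted p = 0.893) and -0.92 for Ccl12 (SE 0.30, limma adjusted p = 0.893). Permuting genotype within each treatment over all 18480 arrangements gave an exact p of 0.0346 for Ccl8, 0.0433 for Ccl12, 0.0788 for Ccl7 and 0.360 for Ccl2, among 30 exact tests made over the 5 members. This permutation takes genotype to have no effect in either treatment, so it is not an exact test that the effects are equal. For Ccl7 the difference was -0.62 (SE 0.34) and for Ccl2 -0.21 (SE 0.29), so the sign was negative for all 4 ligands. Ccr2 had -0.0022 (SE 0.21). At an adjusted p under 0.05 limma called 0.0% of all genes and 0 of 5 members. At an unadjusted p under 0.05 it called 292 genes with a positive and 381 with a negative difference. Among those with a negative difference were 2 of 5 members, Ccl8 and Ccl12, where 2.58% of all genes were lower at that level. The WT controls, with the lowest mean of each ligand, enter this comparison, the genotype comparison in controls and the NMBA comparison in WT alike.

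Ordered by mean FPKM, Ccl8 ran CCR2-/- control, WT NMBA, CCR2-/- NMBA and WT control, and Ccl12 had the same order. The means of the first 3 groups of Ccl8 lay within 1 SD of the NMBA groups from each other, and only the step down to the WT controls exceeded the spread of the controls. For Ccl7 the order was WT NMBA, CCR2-/- control, CCR2-/- NMBA and WT control, and for Ccl2 WT NMBA, CCR2-/- control, CCR2-/- NMBA and WT control, with every neighboring pair of Ccl2 closer than its spread. In bulk tissue such levels do not tell more cells of a kind from more RNA per cell.

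Per length of transcript, Ccl8 made up 69.0 to 87.9% of the summed FPKM of the 4 ligands in a library. The sum was 32.7 to 39.4 FPKM in CCR2-/- controls and 10.9 to 21.0 FPKM in WT controls. It was 17.7 to 47.0 FPKM in CCR2-/- NMBA mice and 17.6 to 50.1 FPKM in WT NMBA mice. The share of Ccl8 was 79.2 to 80.8% in CCR2-/- controls and 69.0 to 77.1% in WT controls. The sum is mostly Ccl8, and like Ccl8 it separated the control groups and covered the same range in both NMBA groups. It is not a separate result on all 4 ligands, since Ccl2 and Ccl12 overlapped in controls.

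The ligands went up and down together from library to library. Over the 18 libraries Ccl8 and Ccl12 had a Pearson r of 0.762 and a Spearman rho of 0.670 on log2(FPKM + 1) (permutation adjusted p = 0.002 and 0.0158). Ccl7 and Ccl8 had r = 0.742 and rho = 0.728 (permutation adjusted p = 0.002 and 0.0105). The other 4 ligand pairs had r of 0.523 to 0.620, and all 6 pairs passed among the 10 pairs computed, by r and by rho. After each group's mean was taken away, r was 0.451 to 0.663, with a permutation p of 0.0729 for Ccl7 and Ccl12 and under 0.05 for the other 5 pairs. Without the 2 libraries farthest from the median of the first gene, r was 0.475 to 0.753. WT NMBA replicate 4 was highest of all libraries in Ccl7 and Ccl8 and next to highest in Ccl12, and WT control replicate 1 was lowest in all 3 genes. The libraries share tissue composition and scaling, whose part in these correlations was not tested.

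Ccr2 itself was read against the ligands over the 9 WT libraries, since the deletion sets its level in the others. With Ccl2 it had r = 0.828 and rho = 0.800 (exact permutation adjusted p = 0.0149 and 0.0379). Without the 2 libraries farthest from the median of Ccr2 r was 0.655 over 7 libraries. WT NMBA replicates 5 and 6 were the lowest WT libraries in both genes and WT NMBA replicate 2 was the highest in both. With Ccl7, Ccl8 and Ccl12 the r was 0.532, 0.399 and 0.255 (exact permutation adjusted p = 0.176, 0.319 and 0.509).

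**Figure D3:**
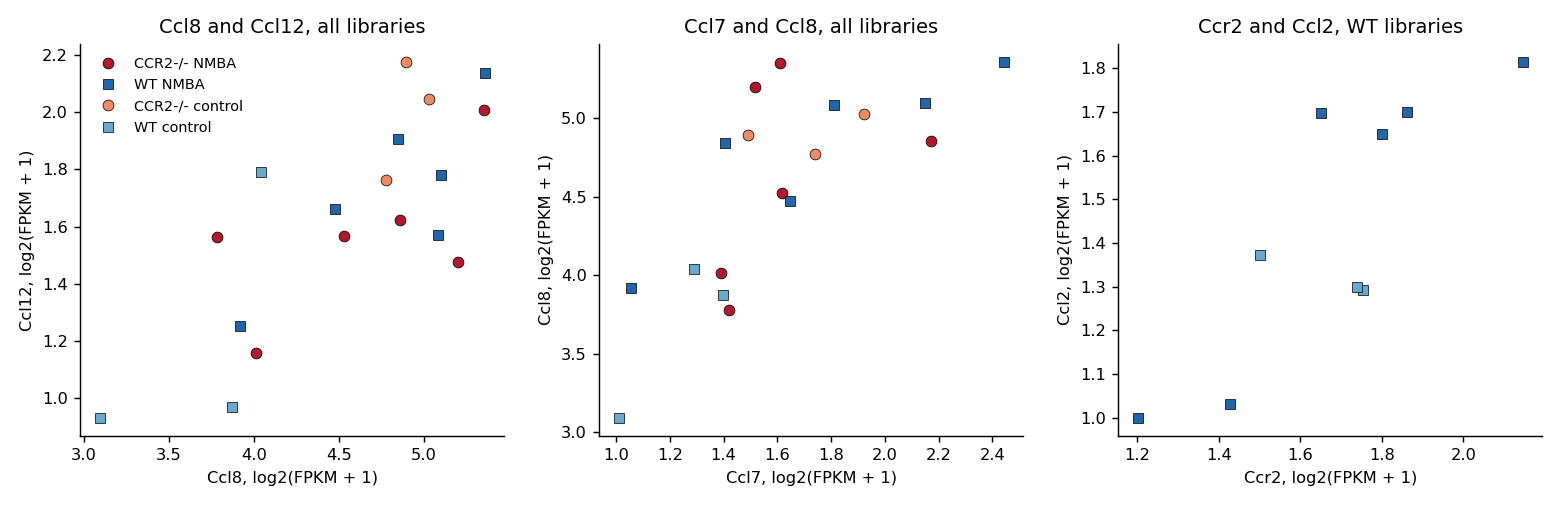
Each point is 1 library, on log2(FPKM + 1) for the genes named on the axes, with circles for CCR2-/- and squares for WT mice. Ccl8 and Ccl12 (r = 0.762) and Ccl7 and Ccl8 (r = 0.742) are shown over 18 libraries, and Ccr2 and Ccl2 (r = 0.828) over the 9 WT libraries.

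The genes whose levels followed each member most closely were then listed, as the 3 highest Spearman rho of FPKM among the genes kept. For Ccl2 over 18 libraries these were Sp140 (rho = 0.849), Relb (rho = 0.825), a subunit of NF-kappaB, and Traf1 (rho = 0.802), an adaptor of TNF receptors. Ccl7 was followed by C1qtnf6 (rho = 0.783), Ms4a6d (rho = 0.754), a membrane protein of macrophages, and Cd83 (rho = 0.752), a surface protein of activated dendritic cells. Ccl8 was followed by Aoah (rho = 0.872), which inactivates bacterial lipopolysaccharide, Ms4a6b (rho = 0.862) and Ms4a6d (rho = 0.849), so that Ms4a6d stood among the nearest genes of both Ccl7 and Ccl8. Ccl12 was followed by Wfdc17 (rho = 0.837), Nnmt (rho = 0.831), a nicotinamide methyltransferase, and Fbxw7 (rho = 0.820), a ubiquitin ligase subunit. For Ccr2 over the 9 WT libraries the nearest were Abhd10 (rho = 0.933), Slc28a2 (rho = 0.917), a nucleoside transporter, and Cmtr2 (rho = 0.917). These are the extremes of 14765 genes over few libraries and are given as a description.

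Other genes of the pathway were read from lists, none of which had a member called at an adjusted p under 0.05 by limma in any of the 6 comparisons. Of the 5 other receptors listed for these ligands (Ccr1, Ccr3, Ccr8 and the decoy receptors Ackr1 and Ackr2), 4 were kept. Their median log2 difference of CCR2-/- from WT was 0.13 under NMBA and -0.055 in controls, against 0.016 and -0.0011 over all genes. At an unadjusted p under 0.05 the counts were 0 in both genotype comparisons, against 6.3% of all genes under NMBA and 5.11% in controls in either direction. The most abundant was Ackr1, in an entry joined with Cadm3 that cannot be separated, with 1.82 ± 0.791 FPKM in CCR2-/- NMBA mice and 1.73 ± 0.544 FPKM in WT NMBA mice (SD, n = 6 each). Ccr1 followed, with 1.57 ± 0.469 FPKM in CCR2-/- NMBA mice and 1.32 ± 0.450 FPKM in WT NMBA mice (SD, n = 6 each). Ccr8, the mouse receptor of CCL8, was not kept and had group means of 0.131 to 0.285 FPKM.

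Of 16 other CC chemokines 13 were kept, with a median difference of CCR2-/- from WT of -0.13 under NMBA and 0.09 in controls, against 0.016 and -0.0011 over all genes. At an unadjusted p under 0.05 the counts were 0 higher and 3 lower under NMBA (Ccl3, Ccl6 and Ccl9), where 3.9% of all genes were lower. In controls they were 2 higher and 0 lower (Ccl11 and Ccl28), where 2.81% of all genes were higher. The most abundant was Ccl6, a myeloid chemokine of rodents, with 34.7 ± 6.39 FPKM in CCR2-/- controls and 38.7 ± 10.7 FPKM in WT controls (SD, n = 3 each). It was followed by Ccl21a, a lymphatic chemokine whose reads can be split with near-identical copies, with 32.6 ± 4.01 FPKM in CCR2-/- controls and 33.5 ± 6.07 FPKM in WT controls (SD, n = 3 each). Ccl11, an eosinophil chemokine named after its values were seen, had 25.7 to 32.3 FPKM in CCR2-/- controls and 19.6 to 22.5 FPKM in WT controls, with a log2 difference of 0.47 (limma adjusted p = 0.933). These 3 genes were in the range of Ccl8 in level, and Ccl11 had the direction of Ccl8 in controls without overlap of the groups. The same held at lower levels for Ccl22 and Ccl28, also named after their values were seen, and for 4.47% of all genes tested. Ccl22 had 1.26 to 1.74 FPKM in CCR2-/- controls and 0.605 to 1.04 FPKM in WT controls. Ccl28 had 0.553 to 1.28 FPKM in CCR2-/- controls and 0.130 to 0.457 FPKM in WT controls.

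Of 11 genes that induce Ccl2 or carry the inducing signal (cytokines such as Il1b and Tnf, and NF-kappaB and AP-1 factors), 8 were kept, with a median difference of CCR2-/- from WT of -0.019 under NMBA and 0.10 in controls. At an unadjusted p under 0.05 the counts were 0 in both genotype comparisons, against 6.3% and 5.11% of all genes. They were 4 higher and 0 lower for NMBA in WT mice (Il1a, Il1b, Tnf and Il17a), where 5.45% of all genes were higher. Rela, the main activating subunit of NF-kappaB, had 22.0 ± 1.93 FPKM in CCR2-/- controls and 23.9 ± 1.76 FPKM in WT controls (SD, n = 3 each). Jun, a subunit of AP-1, had 16.2 ± 10.3 FPKM in CCR2-/- controls and 32.1 ± 13.4 FPKM in WT controls (SD, n = 3 each). In controls 5 of the 8 kept (Il1a, Il1b, Tnf, Il17a and Nfkb1) had a positive difference, the direction of the ligands. Myd88, Rela and Jun had a negative one, and the median over all genes was -0.0011.

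All 12 signaling genes below the receptor were kept, with a median difference of CCR2-/- from WT of -0.04 under NMBA and 0.07 in controls and 0 with an unadjusted p under 0.05 in either, where 6.3% and 5.11% of all genes had one. Gnai2, the G protein subunit to which chemokine receptors couple, had 36.4 ± 5.75 FPKM in CCR2-/- NMBA mice and 37.8 ± 4.79 FPKM in WT NMBA mice (SD, n = 6 each). Gnb1, a G protein beta subunit, had 47.2 ± 2.52 FPKM in CCR2-/- NMBA mice and 47.7 ± 4.50 FPKM in WT NMBA mice (SD, n = 6 each). These genes are used by many receptors and cell types.

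Markers of cells that could produce the ligands or respond to them were summed beside the control comparison in which Ccl8 and Ccl12 were higher. The macrophage list, 16 of 17 markers found, had 226 to 298 FPKM in CCR2-/- controls and 229 to 306 FPKM in WT controls. These sums overlapped where the ligand sums, mostly Ccl8, did not. The macrophage sum is carried by its most abundant genes such as Cbr2 and C1qb, and 10 of 16 markers had a positive difference. Only Timd4 and Cd163 of these markers separated the control groups, with CCR2-/- above WT, as 4.47% of all genes tested did. Timd4 had 1.11 to 1.45 FPKM in CCR2-/- and 0.344 to 0.470 FPKM in WT controls. Cd163 had 4.70 to 5.20 FPKM in CCR2-/- and 2.36 to 4.06 FPKM in WT controls. Both also had a higher mean in CCR2-/- than in WT mice under NMBA. Their log2 differences there were 0.56 and 0.71 (limma adjusted p = 0.398 and 0.654), and 8 of 16 macrophage markers had a positive one. At an unadjusted limma p under 0.05 there were 3 higher (Timd4, Cd163 and Siglec1) and 1 lower (C1qb, log2 difference -0.52). In either direction 6.3% of all genes reached that level. The inflammatory monocyte list, 9 of 10 found, had 45.6 to 104 FPKM in CCR2-/- controls and 29.4 to 49.3 FPKM in WT controls. Its median log2 difference was 0.08 in controls, with 5 of 8 kept markers positive, and -0.22 under NMBA, with 2 of 8 positive. At an unadjusted p under 0.05 limma had 0 higher and 2 lower under NMBA (Ms4a4c and Ms4a6c), where 3.9% of all genes were lower. The most abundant gene of this list was Plac8, which epithelium can also express, at 53.1 ± 29.3 FPKM in CCR2-/- controls and 17.5 ± 7.78 FPKM in WT controls (SD, n = 3 each). Ly6c2, the defining monocyte marker of the list, had 0.699 FPKM in CCR2-/- controls and 0.520 FPKM in WT controls on average. None of the marker lists had a member called by limma in controls. At an unadjusted p under 0.05 the counts there were 1 of 16 kept macrophage markers (Timd4), 1 of 8 kept monocyte markers (Plac8) and 3 of 8 kept T cell markers (Cd3e, Cd3g and Cd4). They were also 1 of 3 kept neutrophil markers (Retnlg), 1 of 5 adipocyte markers (Lep) and 2 of 9 glandular stomach markers (Gkn1 and Gkn2), and 0 in the other marker lists. All of these were higher, where 2.81% of all genes were, and were named after their values were seen.

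Some other lists had a higher median sum in the CCR2-/- controls, as the ligands did. The T cell list, 8 of 8 found, had 6.23 to 10.9 FPKM in CCR2-/- controls and 2.64 to 6.29 FPKM in WT controls. The neutrophil list, 6 of 6 found, had 5.47 to 10.5 FPKM in CCR2-/- controls and 5.13 to 5.88 FPKM in WT controls, with its member Mmp8 at 0 in 3 of 3 CCR2-/- controls and in 2 of 3 WT controls. The adipocyte list, 5 of 5 found, had 61.4 to 159 FPKM in CCR2-/- controls and 30.3 to 74.1 FPKM in WT controls. The glandular stomach list had 25927 to 42390 FPKM in CCR2-/- controls and 4437 to 49787 FPKM in WT controls. Its median log2 difference of CCR2-/- from WT was 1.63 in controls and -0.20 under NMBA. For NMBA from control it was 0.74 in WT and -1.08 in CCR2-/- mice. The adipocyte medians were 1.03, -0.026, 0.56 and -0.78 in the same order. In that order the medians were 0.09, -0.13, 0.22 and -0.078 for the other CC chemokines and 0.08, -0.22, 0.20 and -0.12 for inflammatory monocyte markers. For the signaling genes below the receptor they were 0.07, -0.04, 0.15 and -0.013. All 5 of these lists had the signs of Ccl8, so that pattern was not particular to the ligands. The T cell and neutrophil medians for NMBA in CCR2-/- mice were positive (0.26 and 0.49). The fibroblast list, 8 of 8 found, had the lower median sum in CCR2-/- controls, at 557 FPKM against 649 FPKM in WT controls, with 516 to 775 FPKM in CCR2-/- controls and 598 to 653 FPKM in WT controls. The part of these cell types in the ligand values was not tested.

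**Figure D4:**
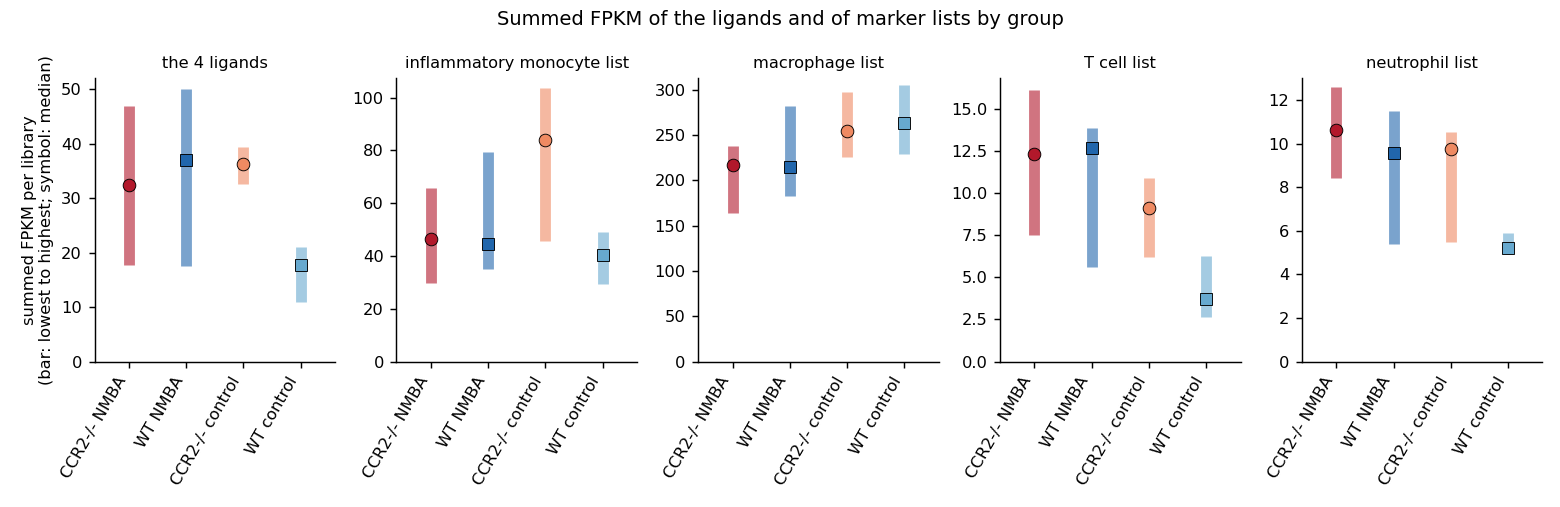
Summed FPKM per library of the 4 ligands and of 4 marker lists (y axis, a separate linear scale per panel), with a bar from the lowest to the highest library of each group and a symbol at the median. The ligand sum is 32.7 to 39.4 FPKM in CCR2-/- controls and 10.9 to 21.0 FPKM in WT controls, whereas the macrophage sums of these groups overlap. Ccl8 makes up 69.0 to 87.9% of the ligand sum in a library.

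Leaving out the 2 libraries with the highest share of the glandular gene Pgc, CCR2-/- NMBA replicate 4 (9.51% of all FPKM) and WT control replicate 3 (9.23%), left the same members called and no ligand past the adjusted threshold. In no case did leaving out any 1 library bring a ligand past it or take Ccr2 out. The Ccl8 difference in controls ran from 0.94 to 1.42 and that of Ccl12 from 0.61 to 1.04 over the 18 fits that left out 1 library each.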

How the data were processed

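The 18 forestomach RNA libraries were analysed. The FPKM values are those the authors deposited in 1 table per gene or transcribed region, and its 18 value columns were matched to the samples by title, with 0 columns left over. The submitters' processing notes name mm10, GRCm38 and DESeq2, whereas the aligner and the tool that gave FPKM are not given in the sources used here. FPKM carries no depth, so no counting interval is given.

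Entries were matched by symbol. The 14765 reference genes that reached 0.5 FPKM in 3 libraries or more were tested. The fit was made by limma 3.58.1 with trend (R 4.3.3) on log2(FPKM + 1), taking the 4 groups as 1 factor for 6 comparisons, two-sided, with Benjamini-Hochberg adjustment over all genes kept and a threshold of 0.05. Members were also compared by exact permutation of log2(FPKM + 1), and pairs of members by correlation with permutation p values (100000 resamples over 18 libraries, exact over 9). The fit was tested on simulated data. The members and gene lists were chosen with earlier results of these data known, and 2 genes of the lists are not reported here.

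Named genes are all members, from each pathway list the 2 with the highest mean FPKM where none was called, and for each member the 3 genes nearest by Spearman rho, and genes named beside a count of 5 or fewer at an unadjusted p were chosen after their values were seen. Alternatives changed the pseudocount to 0.1, the filter, the scaling (TPM, upper quartile), the samples fitted, the replicate block, the NMBA replicates, the libraries rich in Pgc, and left out each library. Whether replicate numbers pair mice was checked on deviations from group means. A correlation over 0.1 was found in 8 of 21 same-number pairs and in 36 of 96 different-number pairs. The numbers were therefore not taken as pairs. Coding and gene coordinates are from GENCODE M21 on GRCm38, the build of the table, and upstream sequence is from RefSeq (GRCm38.p6). Figures were drawn with matplotlib 3.10.9.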

Additional observations from a re-analysis of the deposited data

Results flagged for a closer look

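Ccl7 stood at 3.50 FPKM in CCR2-/- NMBA replicate 6, apart from the other 5 libraries of its group, which had 1.62 to 2.07 FPKM. It was the only such library among 10 groups of 6 examined, where chance marks about 1 in 20. The genotype difference of Ccl8 was lower under NMBA than in controls by a log2 difference of -1.41 (exact permutation p = 0.0346, limma adjusted p = 0.893), and that of Ccl12 by -0.92 (exact permutation p = 0.0433, limma adjusted p = 0.893). Both comparisons share the 3 WT controls, and neither passed after adjustment over all genes. The permutation takes genotype to have no effect in either treatment, so it does not test equal effects exactly.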

How the results depend on the processing

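Ccr2 passed the adjusted threshold of limma in the 3 genotype comparisons under every alternative run, and Ccl7, Ccl8, Ccl12 and Ccl2 passed in none, with 1 exception. With the replicate block, which the data do not bear out as a pairing, Ccl8 passed for NMBA in WT (log2 difference 1.35, adjusted p = 0.0390), so that 1 member was called there. The cause was not tested for any change below. The block moved the genes called to 278 for NMBA in WT and 294 for NMBA in CCR2-/- (13 and 3 without it), and to 8 in the mean of both treatments (15 without it). With NMBA replicates 1 to 3 the genes called were 158 for NMBA in WT, 224 for NMBA in CCR2-/-, 3 for CCR2-/- under NMBA, 4 for CCR2-/- in controls and 6 in the mean, and with replicates 4 to 6 they were 3, 0, 1, 1 and 4. Pseudocount 0.1 gave 26 for NMBA in WT. TPM scaling gave 4 for CCR2-/- under NMBA, and the groups of the comparison alone gave 3 there, 3 in controls and 1 for NMBA in CCR2-/-. Without the libraries highest in Pgc there were 2 for NMBA in WT, 5 for NMBA in CCR2-/- and 8 in the mean.

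Leaving out 1 library gave 1 to 30 genes for NMBA in WT (1 without WT control replicate 1 or 3, 30 without WT NMBA replicate 5), 0 to 6 for NMBA in CCR2-/-, 4 to 13 for CCR2-/- under NMBA, 1 to 6 in controls, 5 to 18 in the mean and 0 to 1 for the difference between treatments.

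Signs turned only for members near 0 and not called. TPM scaling gave -0.029 for Ccr2 with NMBA in WT, 0.077 for Ccr2 in the difference between treatments and 0.024 for Ccl2 under NMBA, and pseudocount 0.1 gave 0.10 for Ccr2 in that difference. Replicates 4 to 6 gave -0.19 (NMBA in WT) and 0.19 (difference) for Ccr2. For Ccl2 they gave 0.39 under NMBA, -0.095 for NMBA in WT, 0.11 for NMBA in CCR2-/- and 0.20 for the difference, and for Ccl7 0.020 under NMBA and 0.018 for NMBA in CCR2-/-. Replicates 1 to 3 gave -0.13 for Ccl2 in the mean of both treatments. Leaving out 1 library took Ccl2 under NMBA to -0.12 to 0.039 and for NMBA in CCR2-/- to -0.14 to 0.034. It took Ccl7 under NMBA to -0.27 to 0.0069 and for NMBA in CCR2-/- to -0.21 to 0.0053. For Ccr2 it gave -0.076 to 0.11 for NMBA in WT, -0.0088 to 0.030 for NMBA in CCR2-/- and -0.098 to 0.091 for the difference. The correlation of Ccr2 with Ccl12 was -0.038 without the 2 farthest libraries. Ccl8 and Ccl12 kept their sign in every comparison and alternative, and their difference between treatments ran from -1.59 to -1.12 and from -1.20 to -0.77 as each library was left out. TPM scaling moved the median of all genes in that difference to 0.14, against 0.02 as deposited, and Ccl8 stood at -1.32 there. Depth is unknown for these libraries, so low values such as those of Ccr2 in CCR2-/- mice carry no counting error here.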
